A study of Mus musculus with 2 samples.

Results

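Damage-associated *Cst7* and *Lpl* microglia of the injured mouse thalamus were analysed in a pair of scRNA-seq libraries, 1 for control Ab and 1 for anti-CD9 Ab treatment. The cells were chosen by their own UMI counts (a UMI, unique molecular identifier, marks 1 captured mRNA molecule). A cell was kept with 200 to 7500 detected genes and no more than 5% of its UMIs in mitochondrial genes. It needed 2 or more UMIs of the microglia genes *P2ry12*, *Tmem119*, *Siglech*, *Gpr34*, *Fcrls* and *Sall1* together, and 3 or more of *Cst7*, *Lpl*, *Itgax* and *Igf1* together, called the 4 rule genes here. Cells with more than 2 UMIs of *Ifit2*, *Ifit3*, *Rsad2* and *Cxcl10*, with more than 1 of *Mki67* and *Top2a*, or with any of *Ms4a7*, *F13a1*, *Cd3d*, *Cd3e* and *Cd3g* were left out. The rule took 1185 of 27418 deposited barcodes, of which 1025 of 12245 came from the control Ab library and 160 of 15173 from the anti-CD9 Ab library. All mice were C57B6/J with a cortical brain injury (CAI). They received anti-CD9 or normal rat IgG as control Ab, both at 1.0 µg/µl, through a cannula into the thalamus from day 7 to day 19, and CD45+ thalamic cells were collected on day 21. The animals are listed as 12 weeks old, and most experiments used female mice. The sex of these mice is not given in the sources used here. Its methods pool cells of 4 mice per thalamic library, without repeating the number for the antibody groups.

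Microglia are the resident macrophages of the brain. In healthy tissue they carry a homeostatic program of receptors such as P2RY12, TMEM119 and CX3CR1. Around damaged neurons, amyloid or dying myelin, part of them lower this program and take on a damage-associated state, with lipoprotein and lipase genes (*Apoe*, *Lpl*), secreted factors (*Spp1*, *Igf1*, *Csf1*), lysosomal proteases and phagocytic receptors (*Trem2*, *Axl*, *Clec7a*). CD9, the target of the antibody, is a tetraspanin, a membrane protein that organises integrins and receptors at the cell surface, and its gene is itself part of the damage-associated program.

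The median depth of the damage-associated cells was 4320 UMIs and 1972 genes under control Ab, and 4431 UMIs and 2040 genes under anti-CD9 Ab. They summed to 5686756 and 747763 UMIs. Comparison cells came from the same gate. The 0-UMI microglia (926 and 642 cells, median 1774 and 2638 UMIs) carried none of the 4 rule genes, and a middle class of 402 and 256 cells carried 1 or 2 UMIs of them. T cells (2 or more Cd3 UMIs and none of the microglia genes; 4773 and 2833 cells, median 1622 and 2282 UMIs) served as background, since free RNA in a droplet gives them UMIs of genes that they do not express. Levels are CPM, the summed UMIs of a gene in a class of cells scaled to 1 common total of UMIs, and intervals are 95% and cover counting error only. With 1 library per antibody there was no replicate check and no test. Antibody, mice and library preparation differ together between the groups, so that their parts cannot be told apart. The libraries shared 54 barcodes (0.441% of the smaller), none of them a damage-associated cell in both.

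The 4 rule genes chose the cells, and their levels are given only as a description. *Cst7*, which encodes the cysteine protease inhibitor cystatin F, was at 1465 CPM under control Ab and 1139 under anti-CD9 Ab, with a UMI in 95.6% and 98.1% of cells. *Lpl*, encoding lipoprotein lipase, was at 688 and 139 CPM and was detected in 74.2% (71.5 to 76.9%) and 33.8% (26.5 to 41.6%) of cells. *Igf1*, encoding the growth factor IGF-1, was at 290 and 182 CPM in 58.9% and 39.4% of cells. *Itgax*, encoding the integrin CD11c, was at 155 and 119 CPM in 46.9% and 36.3%. *Lpl* thus had the widest gap of the 4, and the cells of the anti-CD9 Ab library leaned on *Cst7*. *Cst7* supplied 56.4% of the rule UMIs under control Ab and 72.1% under anti-CD9 Ab, and was the only rule gene in 9.37% and 25% of cells. All 4 genes were detected together in 25.4% (22.7 to 28.1%) and 6.88% (3.48 to 12.0%). Without *Cst7*, 687 of the 1025 control Ab cells (67.0%) and 44 of the 160 anti-CD9 Ab cells (27.5%) would still have passed. T cells also express *Cst7* (142 and 128 CPM), while *Lpl* was detected in 1.55% and 0.212% of them.

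*Spp1* was the 1 marker of the class that the rule did not use. It encodes the secreted phosphoprotein osteopontin and stood at 34056 CPM under control Ab and 29325 under anti-CD9 Ab. A UMI was found in 98.2% and 83.8% of cells, and the median cell gave it 1.63% and 1.60% of its UMIs. The distribution was steep in both libraries, with up to 38.4% and 22.4% of a cell's UMIs, and the richest 10% of cells held 46.1% and 45.4% of all *Spp1* UMIs. Background differed between the libraries. T cells had 1448 CPM of *Spp1* under control Ab and 273 under anti-CD9 Ab, and with each cell thinned to 1500 UMIs (drawn at random without replacement) a UMI was found in 68.7% and 15.1% of them. The 0-UMI microglia, at 1373 and 412 CPM and 61.5% and 18.95% of thinned cells, were near that background, while the thinned damage-associated cells had a UMI in 93.7% and 79.4%.

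Markers of other cell types were checked as summed levels. The 8 T cell markers were at 54.2 and 14.7 CPM in the damage-associated cells, 3 of the 8 being at 0 under anti-CD9 Ab. The step that requires no Cd3 UMI had removed 292 cells under control Ab and 13 under anti-CD9 Ab, and that without *Ms4a7* and *F13a1*, genes of macrophages, 248 and 62. The 14 macrophage markers summed to 1397 and 1799 CPM (1 and 3 at 0), and the 7 neutrophil markers to 454 and 602 (none at 0). The 8 plasma cell markers were the widest apart, at 4838 CPM under control Ab and 313 under anti-CD9 Ab (none and 1 at 0). In 0-UMI microglia they were at 22243 and 3982. The astrocyte markers were at 342 and 340 CPM in the damage-associated cells and the oligodendrocyte markers at 221 and 103. Cells with 2 or more UMIs of a list were most frequent for macrophages, at 85.8% and 92.5% (0-UMI microglia 23.3% and 65.4%). They were 37.6% and 38.75% for astrocytes, 45.85% and 54.4% for neutrophils and 53.95% and 33.75% for plasma cells. For T cells they were 3.61% and 1.25%. Without cells holding 2 or more UMIs of neural, B cell, plasma cell and neutrophil markers together, 111 and 19 damage-associated cells remained. The macrophage markers were not part of that step. The part of these transcripts in the results below was not tested. A doublet score marked 5.56% of the damage-associated cells under control Ab and 10% under anti-CD9 Ab, and these cells were kept.

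The class was far less frequent under anti-CD9 Ab. Because the rule counts UMIs, a deeper cell passes it more easily, and every gated microglial cell was therefore thinned to 1500 UMIs and gated again. This left 1700 of 2353 and 692 of 1058 gated cells. Shallower cells left out were 514 and 172, and the others lost had too few UMIs of the microglia genes after thinning. Before thinning, the gated cells had a median of 11 and 6 UMIs of these genes. The part of this loss in the shares was not tested. Cells with 3 or more UMIs of the rule genes were then 35.5% (604 cells, 33.3 to 37.9%) under control Ab and 7.23% (50 cells, 5.41 to 9.42%) under anti-CD9 Ab. The difference was −28.3 percentage points (−31.2 to −25.2). Unthinned shares were 43.6% and 15.1%. By bins of rule UMIs, cells with 3 to 4 UMIs were 13.5% and 5.64% of microglia, cells with 5 to 9 were 18.5% and 1.45%, and cells with 10 or more were 3.59% (61 cells) and 0.145% (1 cell). Cells without any were 40.5% and 73.0%, as the plot of gated microglia by their rule UMIs shows. Counted against other classes, there were 111 damage-associated cells per 100 0-UMI microglia under control Ab and 24.9 under anti-CD9 Ab. Per 100 T cells there were 21.5 and 5.65, and they made up 8.77% and 1.11% of all kept cells. These ratios rest on the same sorted pool, so that they do not give numbers of cells per thalamus.

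**Figure D1:**
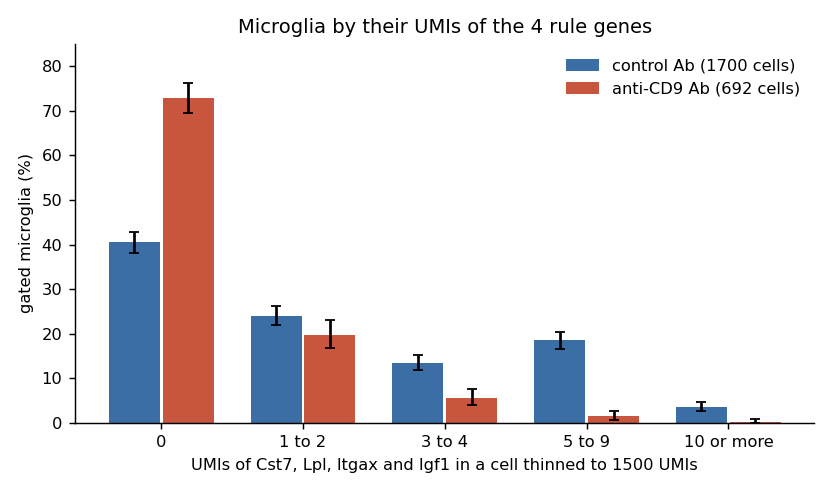
Percent of gated microglia (vertical axis) by the UMIs of *Cst7*, *Lpl*, *Itgax* and *Igf1* in a cell thinned to 1500 UMIs (horizontal axis), with bars for control Ab (1700 cells) and anti-CD9 Ab (692 cells) and exact binomial 95% intervals that cover counting error only. The share with 5 to 9 UMIs is 18.5% under control Ab and 1.45% under anti-CD9 Ab, while cells without any are 40.5% and 73.0%.

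What the damage-associated cells expressed beyond the rule genes was read against 0-UMI microglia of the same library. The classes were split on measured genes of the same cells, so that these ratios describe them and test nothing. A gene counts as past the fold at 1.5-fold or more (0.585 on the log2 scale), with at least 50 UMIs over the 2 classes compared. Under control Ab, 8.51% of 10265 genes were past the fold upwards and 21% downwards, and under anti-CD9 Ab 5.46% and 22.7% of 6963. In both libraries at once the shares were 3.38% and 9.06% of 6918 genes. The list of damage-associated genes, without the rule genes, stood well above this background. Under control Ab, 39 of its 41 measured genes were past the fold upwards (median log2 ratio 1.92, against −0.25 for all genes), and under anti-CD9 Ab 27 of 35 (median 1.24, against −0.24). None was past it downwards in either library.

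The genes that led this ranking in both libraries were again genes of the damage-associated state. *Spp1* was 4.63 (control Ab) and 6.15 (anti-CD9 Ab) log2 units above 0-UMI microglia. *Gpnmb*, a transmembrane glycoprotein of phagocytes, was at 178 CPM against 4.97 under control Ab (log2 ratio 5.16) and at 193 against 13.8 under anti-CD9 Ab (3.81). *Csf1*, encoding the cytokine colony stimulating factor 1, was at 581 against 63.1 CPM (3.20) and 520 against 79.2 (2.72). *Fabp5*, a fatty acid carrier, was at 391 against 43.7 (3.16) and 400 against 61.1 (2.71), with T cells at 131 and 190. These 4 genes differed by less than 1.5-fold between the antibodies within the damage-associated cells. Others among the 15 highest were *Fn1*, *Timp2*, *Ch25h*, *Cxcl9*, *Pld3*, *Clec7a*, *Rcan1*, *Apoe*, *St8sia6*, *Ank* and *A430093F15Rik*. *Apoe*, the lipoprotein that carries lipid between brain cells, reached 20806 and 23220 CPM, from 4436 and 6268 in 0-UMI microglia. The 10 lowest genes (*Iglv1*, *Slpi*, *Mctp2*, *Ly6d*, *Grm8*, *Plac8*, *Retnlg*, *Ly6c2*, *S100a8* and *S100a9*) belong largely to immunoglobulin, neutrophil, monocyte and plasmacytoid dendritic cell transcripts, so that the 0-UMI class holds such RNA. *S100a8*, for one, was at 363 and 500 CPM in 0-UMI microglia and 30.4 and 73.6 in the damage-associated cells.

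Levels of 18 genes in each class are drawn side by side for both libraries. For the damage-associated genes drawn, the middle class lay between 0-UMI and damage-associated microglia, apart from *Ccl6* and *Dkk2* under anti-CD9 Ab. *Ccl6*, a chemokine, was there at 67.6 CPM in the middle class and 82.5 in 0-UMI microglia.

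**Figure D2:**
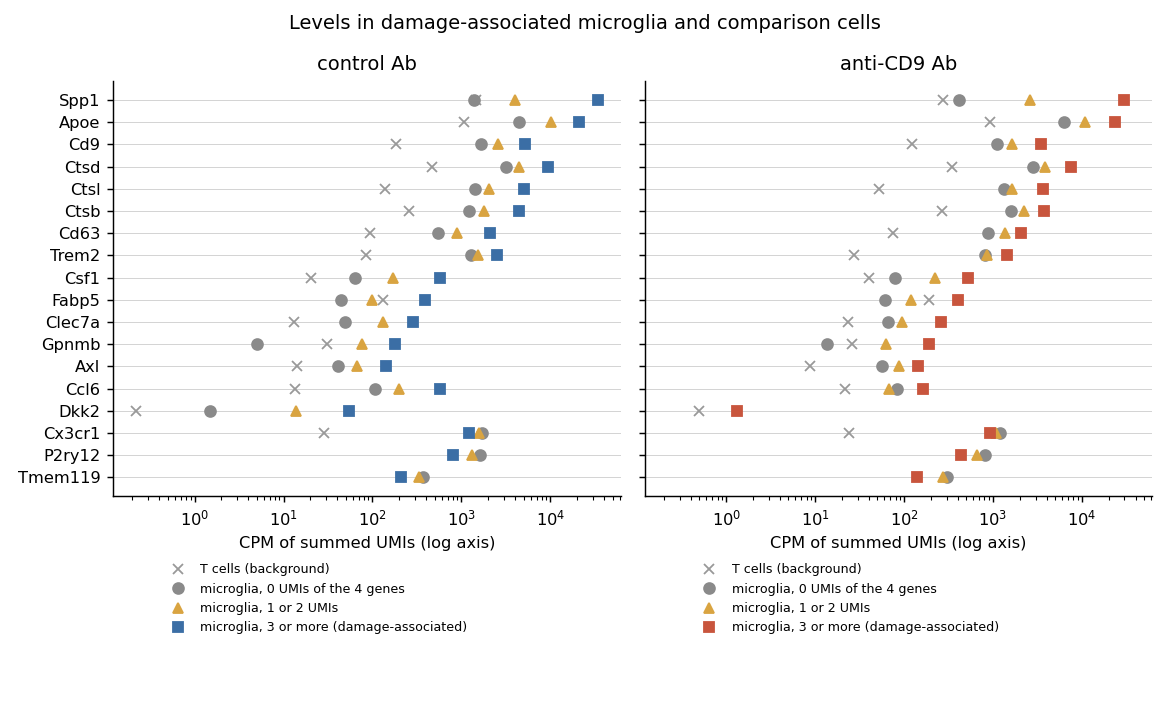
CPM of summed UMIs (horizontal log axis) of 18 genes in T cells (crosses), 0-UMI microglia (circles), microglia with 1 or 2 UMIs of the 4 rule genes (triangles) and damage-associated microglia (squares), control Ab on the left and anti-CD9 Ab on the right; classes at 0 are not drawn. *Spp1* stands at 34056 and 29325 CPM in the damage-associated cells, and *Cd9* at 5139 and 3422. *P2ry12* and *Tmem119* were used to gate all microglia drawn.

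Homeostatic genes differed among themselves in the damage-associated cells. Of the 24 genes on the homeostatic list, which holds none of the gate's 6 genes, 10 were past the fold downwards and 1 upwards under control Ab (median log2 ratio −0.54), and 6 downwards and 1 upwards of 23 under anti-CD9 Ab (−0.35). Downwards, the shares of all genes were 21% and 22.7%, so that the count under anti-CD9 Ab was near that background. *Selplg*, a selectin ligand, had log2 ratios of −1.03 and −0.88. *Cx3cr1*, the fractalkine receptor, was at 1225 against 1717 and 919 against 1192. *Sparc*, a secreted matrix protein, was not lower (1503 against 1157, and 836 against 596).

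Lysosomal genes stood higher as a group. The list of lysosomal hydrolases, membrane proteins and pump subunits had 33 measured genes. Under control Ab 21 of them were past the fold upwards (median 0.93), and under anti-CD9 Ab 18 of 32 (0.64), with none past it downwards. Over all genes the upward shares were 8.51% and 5.46%. *Ctsd*, the aspartic protease cathepsin D, was at 9329 CPM against 3209 under control Ab and 7533 against 2783 under anti-CD9 Ab. *Ctsl* and *Ctsb*, the cysteine proteases cathepsin L and B, were at 5019 against 1406 and 4458 against 1206 under control Ab, and at 3597 against 1311 and 3782 against 1571 under anti-CD9 Ab. *Cd63*, a lysosomal tetraspanin, was at 2073 against 538 and 2045 against 866. The list had members that stayed level, such as *Lgmn* (log2 ratios −0.27 and −0.18) and *Npc1* (−0.07 and 0.22). *Mitf*, a transcription factor of the family that drives lysosomal genes, was at 846 against 421 CPM (log2 ratio 1.01) and 785 against 427 (0.88). For its relatives the ratios were −0.31 and 0.09 (*Tfeb*) and −0.51 and 0.08 (*Tfe3*).

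The promoters of *Ctsd* and *Spp1* are shown because these genes were high together in these cells. Those of the rule genes *Itgax*, *Igf1* and *Cst7* are shown as well, and the rule itself made these genes high here. All promoters are RefSeq sequences of the mouse build GRCm38.p6, the 250 bases before the first annotated start, and capitals mark a motif. The motifs searched on both strands were CACGTG (the palindromic E-box that MITF and TFEB read), TGACTCA or its reverse complement TGAGTCA (the AP-1 site), and GAGGAAG or CTTCCTC (a core read by PU.1). The windows searched also took in 50 bases after each start. CACGTG was present for 9 of the 25 lysosomal genes with a promoter sequence (36%), and for 8.09% of all 27025 genes. For the damage-associated list it was 3 of 29 (10.3%). TGACTCA was found for 3 of the 13 top genes with a sequence (23.1%, against 5.95% of all), and GAGGAAG for 2 of 13 (15.4%, against 15.4% of all). A match describes the letters in the window and nothing more. *Ctsd* (chr7:142387828-142388077, minus strand) held CACGTG with the first bases 245 and 98 bases before the start, and *Lamp1* held it at 4 positions. *Spp1* (chr5:104434861-104435110, plus strand) held GAGGAAG, *Itgax* (chr7:128129300-128129549, plus strand) TGAGTCA and *Igf1* (chr10:87860861-87861110, plus strand) GAGGAAG, while *Cst7* (chr2:150570165-150570414, plus strand) held none of the 3.
Ctsd: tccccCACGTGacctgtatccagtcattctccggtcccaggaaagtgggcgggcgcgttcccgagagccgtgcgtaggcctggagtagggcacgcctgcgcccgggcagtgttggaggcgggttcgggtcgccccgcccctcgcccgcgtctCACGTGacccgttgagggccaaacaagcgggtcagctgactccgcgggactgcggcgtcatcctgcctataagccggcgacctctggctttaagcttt
Spp1: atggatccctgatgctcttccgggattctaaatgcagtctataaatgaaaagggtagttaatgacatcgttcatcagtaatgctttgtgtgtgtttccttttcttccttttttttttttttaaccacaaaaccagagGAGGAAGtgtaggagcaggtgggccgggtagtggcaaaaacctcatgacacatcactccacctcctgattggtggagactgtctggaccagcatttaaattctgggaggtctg
Itgax: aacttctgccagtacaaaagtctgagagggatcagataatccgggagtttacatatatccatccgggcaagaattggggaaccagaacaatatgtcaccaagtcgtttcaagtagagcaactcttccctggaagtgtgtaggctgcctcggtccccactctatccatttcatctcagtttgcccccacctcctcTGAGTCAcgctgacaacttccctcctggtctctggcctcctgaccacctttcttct
Igf1: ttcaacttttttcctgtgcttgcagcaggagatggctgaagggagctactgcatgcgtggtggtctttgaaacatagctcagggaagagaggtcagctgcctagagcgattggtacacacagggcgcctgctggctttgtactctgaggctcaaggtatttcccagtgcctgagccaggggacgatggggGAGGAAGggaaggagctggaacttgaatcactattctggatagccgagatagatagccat
Cst7: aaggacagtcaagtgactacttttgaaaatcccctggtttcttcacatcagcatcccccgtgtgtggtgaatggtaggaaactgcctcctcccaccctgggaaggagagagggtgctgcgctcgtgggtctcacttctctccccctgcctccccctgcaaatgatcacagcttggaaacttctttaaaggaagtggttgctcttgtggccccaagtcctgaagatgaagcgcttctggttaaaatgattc

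The within-library ratios of 5 lists were also set against each other. Of 38 damage-associated genes measured in both, 34 were above 0 in both and 33 had the smaller ratio under anti-CD9 Ab. Of 33 lysosomal genes these counts were 29 and 25. Among 17 antigen presentation genes they were 13 and 14, and of 19 interferon response genes only 3 were above 0 in both, with 18 having the smaller ratio under anti-CD9 Ab. Of 24 homeostatic genes 4 were above 0 in both and 7 had the smaller ratio under anti-CD9 Ab. The same counts were not taken over all genes, so that they have no background beside them and only describe the lists. The median ratios of all genes were −0.25 (control Ab) and −0.24 (anti-CD9 Ab). Of the damage-associated cells, 588 of 1025 under control Ab and 37 of 160 under anti-CD9 Ab had 10 or more rule UMIs. The part of this in the smaller ratios was not tested. The rule itself caps 4 interferon genes at 2 UMIs in the damage-associated cells and in the comparison classes alike. *Spp1* and *Timp2*, an inhibitor of matrix metalloproteases, were among the genes with the larger ratio under anti-CD9 Ab (*Timp2* 2.61 against 2.23).

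**Figure D3:**
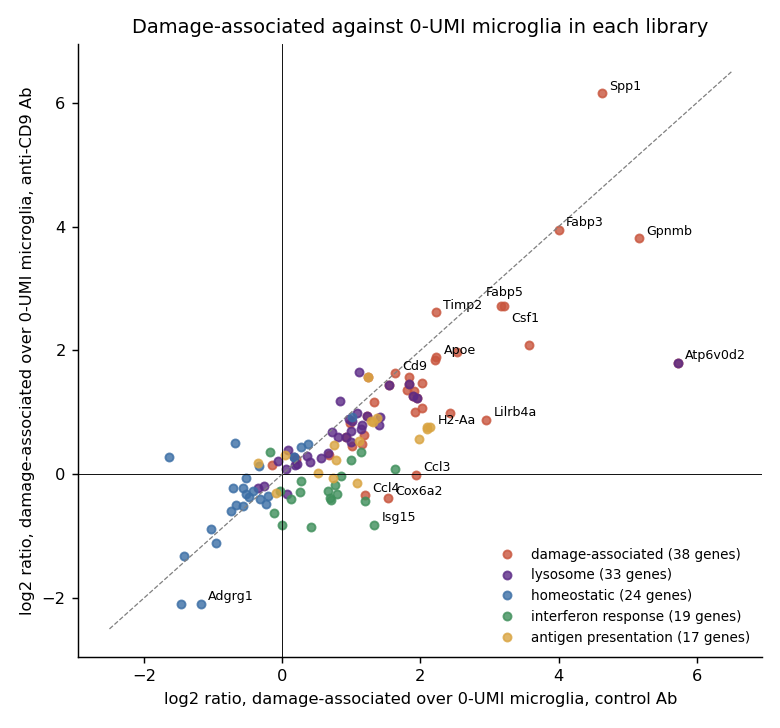
Each point is a gene of 1 list, placed by its log2 ratio of damage-associated over 0-UMI microglia under control Ab (horizontal axis) and under anti-CD9 Ab (vertical axis); the dashed line marks equal ratios. Of 38 damage-associated genes, 34 lie above 0 on both axes and 33 lie below the dashed line. The same counts were not taken over all genes.

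The levels also followed the number of rule UMIs. In cells thinned to 1500 UMIs, *Cd9* under control Ab was at 2055 CPM without rule UMIs, 3833 with 1 to 2, 5642 with 3 to 4 and 7002 with 5 to 9. Under anti-CD9 Ab it was at 1397, 2803, 3829 and 4467, lower in each bin, with intervals apart in all 4. *Spp1* went from 2391 to 50365 CPM under control Ab and from 1109 to 66133 under anti-CD9 Ab. At 3 to 4 rule UMIs its levels were close, at 28582 (28020 to 29153) and 30188 (28796 to 31630). *Csf1* at 3 to 4 UMIs was likewise close, at 681 (597 to 774) and 752 (547 to 1010). *Ctsd* was lower under anti-CD9 Ab at 5 to 9 UMIs, at 9667 (8157 to 11374) against 12607 (12289 to 12932). *P2ry12*, the purinergic receptor of homeostatic microglia, was at 1704 and 541 CPM in the first and the fourth bin under control Ab and at 1020 and 200 under anti-CD9 Ab. It is a gene of the gate, so that these levels are a description of selected cells. The bin of 5 to 9 UMIs held 314 cells under control Ab and 10 under anti-CD9 Ab, which is thin.

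**Figure D4:**
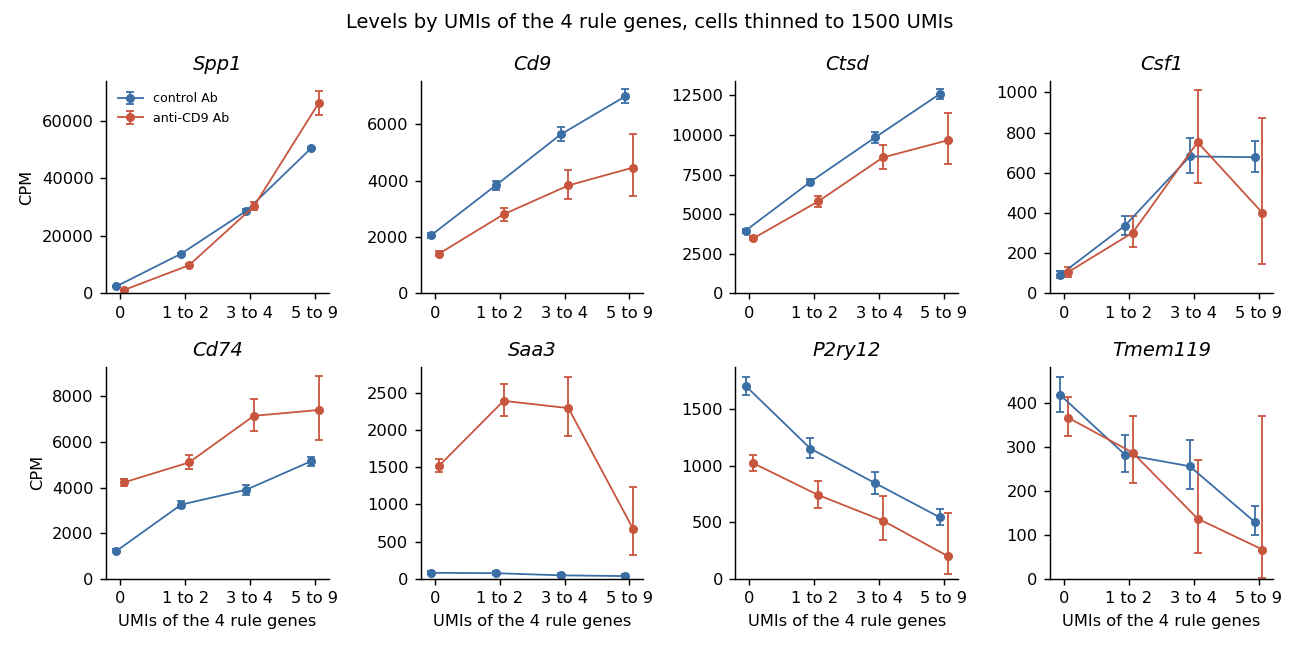
CPM (vertical axes) of 8 genes in microglia thinned to 1500 UMIs and binned by their UMIs of the 4 rule genes (horizontal axes), in blue for control Ab and red for anti-CD9 Ab, with Poisson 95% intervals. *Cd9* is lower under anti-CD9 Ab in each bin, at 3829 against 5642 CPM for 3 to 4 UMIs, while *Spp1* is at 30188 and 28582 there.

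At the edge of the rule, 134 control Ab cells had 2 rule UMIs and 106 had 3. Their *Spp1* was at 5259 and 9474 CPM, their *Cd9* at 2806 and 3531, and their *P2ry12* at 1230 and 967. Under anti-CD9 Ab, 73 cells had 2 and 34 had 3, with *Spp1* at 4783 and 7553, *Cd9* at 2132 and 2256, and *P2ry12* at 564 and 676.

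The remaining comparison asked how the damage-associated cells that were present under anti-CD9 Ab differed from those under control Ab. Over 9510 genes, 17.1% were 1.5-fold or more lower under anti-CD9 Ab and 7.33% as much higher. In 0-UMI microglia the shares were 13.5% and 11.1% of 8591 genes, and in T cells 10.6% and 8.23% of 11655. The damage-associated list had a median antibody ratio (log2 of the CPM under anti-CD9 Ab over that under control Ab) of −0.22 in the damage-associated cells, against −0.08 for all genes there. Of its 41 genes 29 were lower, 15 of them past the fold, and 2 were past it upwards. In 0-UMI microglia the median of the list was 0.41, with 4 of 34 genes past the fold downwards and 11 upwards, and in T cells it was 0.03.

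*Cd9* itself was lower by about the same factor in damage-associated microglia, 0-UMI microglia and T cells. It was at 5139 and 3422 CPM in the damage-associated cells (log2 ratio −0.59, −0.64 to −0.53), at 1653 and 1107 in 0-UMI microglia (−0.58), and at 186 and 122 in T cells (−0.60), the background class. The middle class was at 2564 and 1627. Macrophages without microglia UMIs (3 or more UMIs of *Gpnmb* and *Fabp5* and at least 1 of *Ms4a7* and *F13a1*, 105 and 482 cells) were the exception, at 4335 and 559 (−2.96). The difference of the ratios between damage-associated and 0-UMI microglia was −0.01 (−0.11 to 0.09). Among the 18 tetraspanins and integrin partners, *Tspan5* (−1.02), *Cd151* (−0.64) and *Cd9* were past the fold, all downwards, a share near the 17.1% of all genes, and the median was −0.15. *Cd81*, another tetraspanin of microglia, was at 2527 and 2267 CPM, and *Cd63* at 2073 and 2045.

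*Spp1* had a log2 ratio of −0.22 (34056 and 29325 CPM) in the damage-associated cells, below the fold, with ratios of −1.74 in 0-UMI microglia and −2.41 in T cells. With 5 or more rule UMIs required of a cell, the ratio of *Spp1* in the damage-associated cells was 0.04, so that its direction there depends on the rule. *Trem2*, the lipid receptor on which much of the damage-associated program depends, was at 2539 and 1452 CPM (−0.81, −0.90 to −0.72), with 0-UMI microglia at 1281 and 821. *Cd68*, a lysosomal membrane glycoprotein of phagocytes, was at 542 and 322 (−0.75). *Ank*, a pyrophosphate and citrate transporter, was at 492 and 130 (−1.92), and *Ccl6* at 574 and 165 (−1.80). A further group of low genes all but vanished under anti-CD9 Ab. *Dkk2*, a secreted Wnt modulator, had 307 UMIs in 141 of 1025 cells under control Ab and 1 UMI under anti-CD9 Ab (53.99 and 1.34 CPM, log2 ratio −5.34, −8.167 to −2.503). *Baiap2l2*, a membrane-bending protein, had 200 UMIs in 158 cells and 0, at least 8.77-fold lower when 3 UMIs are allowed for over the group, and *Mamdc2* had 121 in 81 cells and 0, at least 5.30-fold lower.

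Other genes of the program were at equal levels. *Axl*, a receptor for phosphatidylserine-bound ligands, was at 142 and 144 CPM and detected in 45.6% of cells in both libraries. *Gpnmb* was at 178 and 193 CPM in 29.95% and 29.4% of cells. *Fabp5* was at 391 and 400 CPM, *Timp2* at 1772 and 1807, and *Clec7a*, the glucan receptor Dectin-1, at 285 and 261. *Cybb*, a subunit of the phagocyte NADPH oxidase, was higher under anti-CD9 Ab, at 75.4 and 231 CPM (1.62), as was *Cd52* at 613 and 943 (0.62).

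The lysosomal list had a median of −0.04 in the damage-associated cells, with 2 of 33 genes past the fold downwards (*Atp6v0d2* and *Cd68*) and 1 upwards (*Ctsc*, 647 and 1101 CPM). Over all genes the shares were 17.1% and 7.33%. The main cathepsins were modestly lower, with log2 ratios of −0.48 (−0.54 to −0.42) for *Ctsl*, −0.31 for *Ctsd* and −0.24 for *Ctsb*, and *Ctss* had one of 0.33 (5304 and 6652 CPM). Phagocytic receptors and their signaling genes had 7 of 26 past the fold upwards in 0-UMI microglia (median 0.39) and 14 of 25 in T cells (median 0.76). The upward shares of all genes in these classes were 11.1% and 8.23%. In the damage-associated cells the median of this list was 0.07. There 1 of 26 was past the fold downwards (*Trem2*) and 7 upwards, against 17.1% and 7.33% of all genes. *Mertk*, the other TAM receptor of microglia, was at 1120 and 1181 CPM, and *Syk*, the kinase below TREM2 and Fc receptors, at 92.0 and 150 (0.70, 0.41 to 1.00). *Tyrobp*, the TREM2 adaptor, was at 2030 and 1904. The homeostatic list was lower in the anti-CD9 Ab cells (median −0.49), with 9 of 24 past the fold downwards, against 17.1% of all genes, and none upwards. It was also lower in 0-UMI microglia (−0.60) and T cells (−0.33). *Cst3*, the abundant protease inhibitor cystatin C, was at 8564 and 4599 CPM, and *Sparc* at 1503 and 836.

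**Figure D5:**
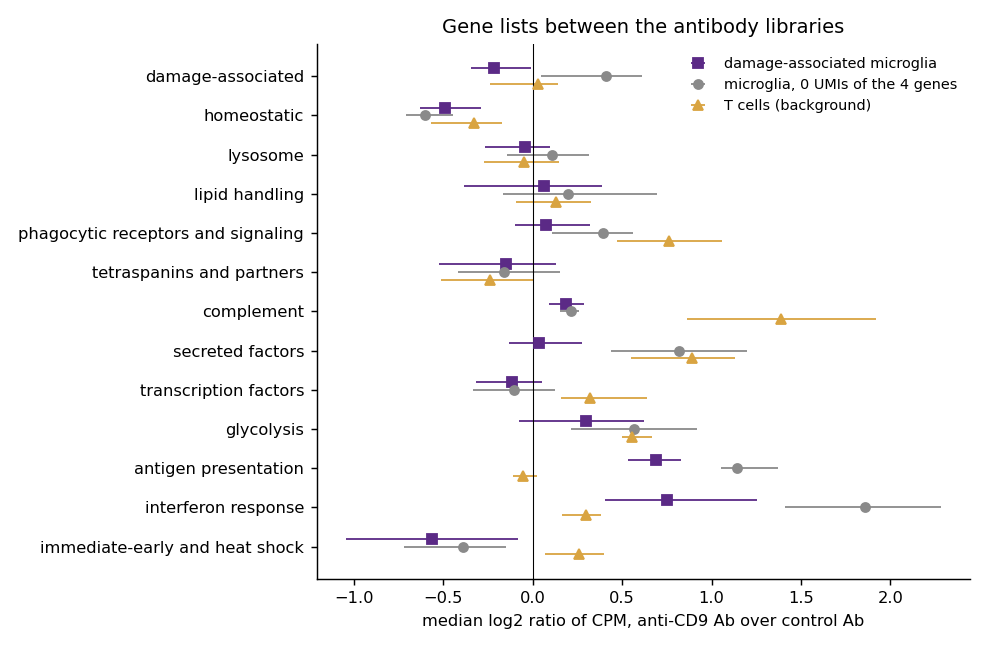
Median antibody ratio (log2 of CPM under anti-CD9 Ab over CPM under control Ab) of 13 gene lists (horizontal axis) in damage-associated microglia (squares), 0-UMI microglia (circles) and T cells (triangles), with lines from the median of the genes' lower 95% bounds to that of their upper bounds. The damage-associated list is at −0.22 in the damage-associated cells and 0.41 in 0-UMI microglia, while antigen presentation and interferon response are above 0 in both.

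Antigen presentation and interferon genes were higher in the anti-CD9 Ab cells. Of 17 antigen presentation genes 16 were higher and 10 past the fold (median 0.69), against 1.14 in 0-UMI microglia and −0.06 in T cells. Over all genes, 7.33% were past the fold upwards in the damage-associated cells. *Cd74*, the invariant chain of MHC class II, was at 4326 and 7474 CPM, *H2-Aa* at 1982 and 3224, and *B2m*, the light chain of MHC class I, at 3500 and 5635. Of 19 interferon response genes all were higher, 14 past the fold (median 0.75), against a median of 1.86 in 0-UMI microglia and 0.30 in T cells. *Ifitm3*, an antiviral membrane protein, was at 139 and 383 CPM, and *Gbp2* at 28.5 and 201. The rule had left out cells with more than 2 UMIs of 4 interferon genes, and the part of that step in these values was not tested. Over 0-UMI microglia, *Cd74* had a log2 ratio of 2.09 under control Ab (4326 against 1017 CPM) and 0.77 under anti-CD9 Ab (7474 against 4385), and *H2-Aa* one of 2.14 and 0.76.

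Among 30 secreted factors 13 were past the fold upwards in the damage-associated cells, against 7.33% of all genes. Downwards there were 7, a share near the 17.1% of all genes, and the median log2 ratio was 0.03. In 0-UMI microglia 16 of 29 were past it upwards and 4 downwards (median 0.82), against 11.1% and 13.5% of all genes. In T cells these counts were 18 and 4 of 30 (median 0.89), against 8.23% and 10.6% of all genes. Lower in the damage-associated cells were the CC chemokines *Ccl6*, *Ccl9* (204 and 69.5 CPM, −1.56) and *Ccl3* (496 and 300, −0.73). Growth factors such as *Gas6* (83.4 and 45.5), the bridging ligand of TAM receptors, and *Tgfb1* (174 and 114) were lower too. *Ccl3* was higher in 0-UMI microglia, from 130 to 301 CPM, and in T cells, from 23.3 to 159. The highest genes under anti-CD9 Ab over all genes with 200 or more UMIs were *Cxcl2* (4.22 and 264 CPM), *Saa3* (70.3 and 3305), *Cxcl13* (71.2 and 740), *Ccl5* (144 and 1368), *Iigp1* (52.1 and 380), *Gbp2*, *Cxcl9* (67.4 and 336), *Cd300lf*, *Il18bp*, *Cp*, *Fcgr4* and *Aoah*. Each of them was higher in 0-UMI microglia too, and only *Saa3* and *Cp* had the larger log2 ratio in the damage-associated cells. For *Saa3* the ratios were 5.55 in the damage-associated cells and 4.70 in 0-UMI microglia. They were 5.96 and 8.41 for *Cxcl2*, 3.25 and 3.56 for *Ccl5*, and 2.87 and 5.27 for *Iigp1*. *Cxcl2* rested largely on 1 damage-associated cell, which held 133 of its 197 UMIs (67.5%), and 26 of the 160 cells had any. *Cxcl2*, a neutrophil attractant, and *Saa3*, an acute-phase apolipoprotein, were also higher in T cells (2.09 and 393 CPM, and 20.7 and 803). *Ccl5* was at 924 and 1185 CPM there. *Saa3* was found in 13.5% and 64.4% of the damage-associated cells and in 4.86% and 61.4% of 0-UMI microglia. In the damage-associated cells, 21.4% of its UMIs under anti-CD9 Ab were in 1 cell. For *Cxcl13* 1 cell held 27.7%. Among genes whose T cell level was no more than 10% of that in the damage-associated cells in both libraries, *Cxcl13*, a B cell attractant, had the largest ratio (3.38, T cells 4.63 and 24.4 CPM). It was followed by *Cp*, the copper oxidase ceruloplasmin (59.1 and 222 CPM), the Fc receptor *Fcgr4* (73.7 and 269), and the chemokines *Ccl2* (139 and 433) and *Ccl12* (172 and 495). In 0-UMI microglia the log2 ratios were 3.51 (*Cxcl13*), 1.82 (*Cp*), 2.73 (*Fcgr4*), 2.40 (*Ccl2*) and 2.79 (*Ccl12*).

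Of the 12 genes lowest under anti-CD9 Ab, 10 are genes of neurons or other neural cells (*Erbb4*, *Slc24a2*, *Gpc5*, *Ntm*, *Lsamp*, *Slc1a2*, *Sox2ot*, *Cpe*, *Npas3* and *Slc4a4*). These 10 were lower in T cells as well, with log2 ratios from −3.14 to −1.01, and were found in 4% to 7.12% of the control Ab cells. The other 2 were *Dkk2* and *Ctnna3*. *Ctnna3*, an alpha-catenin of cell contacts, had 2811 UMIs in 280 control Ab cells (27.3%) and 1 UMI under anti-CD9 Ab, or 494 and 1.34 CPM (log2 ratio −8.53, −11.4 to −5.70). Its T cell level was 18.2 and 3.49 CPM, and in 0-UMI microglia it was at 84.9 and 12.7. The limit on T cell background used both libraries, so a gene near 0 under anti-CD9 Ab could fail it by its own low level. *Ctnna3* and *Dkk2* (T cells 0.22 and 0.50 CPM) were left out of the next ranking in this way. Among the genes with little T cell background, the lowest were *Adamts16* (58.7 and 6.69 CPM, −3.13), *Baiap2l2*, *Sncaip*, *Actr3b* (36.1 and 6.69), *Hpgd*, *Prkg1*, *Esrrg*, *Csmd3* (1327 and 334, −1.99), *Jam2*, *Rnf144b*, *Ptchd1* and *Etl4* (305 and 92.3). In 0-UMI microglia the log2 ratios were at least as low for *Adamts16* (−4.21), *Ptchd1* (−4.26), *Prkg1* (−2.92), *Hpgd* (−2.21) and *Csmd3* (−2.10). The drop there was smaller for *Sncaip* (−1.82), *Jam2* (−1.48), *Rnf144b* (−1.26), *Esrrg* (−1.24), *Actr3b* (−0.85) and *Etl4* (−0.59). *Baiap2l2* had 7 UMIs and 0 there. *Hpgd*, which degrades prostaglandins, was detected in 50.05% and 15% of the damage-associated cells. *Baiap2l2*, *Actr3b* and *Etl4* had been above 0-UMI microglia under control Ab, by 3.34, 2.60 and 2.85 log2 units, while *Hpgd*, *Sncaip* and *Csmd3* had been below it.

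The damage-associated cells were not uniform. Under control Ab, the 761 cells with *Lpl* had 36637 CPM of *Spp1*, 5461 of *Cd9* and 644 of *Csf1*, and the 264 without it 24073, 3891 and 339. Under anti-CD9 Ab, the 54 cells with *Lpl* had 43864 CPM of *Spp1* and 4191 of *Cd9*, and the 106 without it 21626 and 3015. *Csf1* did not follow there (471 and 546). A smaller set had no *Spp1* UMI, 18 of 1025 cells (1.76%) under control Ab and 26 of 160 (16.3%) under anti-CD9 Ab, at median depths of 2828 and 4426 UMIs. Under anti-CD9 Ab these 26 cells had 1221 CPM of *Cd9*, 65.4 of *Csf1*, 7.27 of *Gpnmb* and 930 of *Trem2*, and the 134 cells with *Spp1* had 3919, 623, 234 and 1570. The 0-UMI microglia of that library were at 1107, 79.2, 13.8 and 821. *Saa3* was at 6118 CPM in the cells without *Spp1* and 2670 in those with it. Under control Ab, the 18 cells without *Spp1* had 4027 CPM of *Cd9* and 573 of *Csf1*. These splits, and the list genes named for their known roles rather than for the size of their ratios, were chosen after the values were seen.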

How the data were processed

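The authors made the 2 libraries from CD45+ thalamic cells with 10x Single Cell 3' v3.1 chemistry and deposited matrices of raw UMI counts, 1 per antibody. The submitters' processing notes name Cell Ranger 8.0.0 and GRCm39, and the study's methods Cell Ranger 6.0.2 and GRCm38. No coordinate was therefore taken from the files. The matrices hold 33696 genes.

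Cells were gated by the rule given in the report, and UMIs were summed per class and library and scaled to CPM. Intervals of log2 ratios and levels are Poisson and those of shares exact binomial (Clopper-Pearson), for counting error only. Genes needed 50 UMIs over the 2 classes compared, and a sum of 0 was set to 3 UMIs over the class. With 1 library per group no test was run. Thinning drew 1500 UMIs per cell. Doublets were scored by simulated neighbours and kept. Genes were named as the rule genes, *Spp1*, *Cd9*, the extremes of each list, the 12 highest and lowest antibody ratios (200 or more UMIs) and the 15 highest and 10 lowest ratios over 0-UMI microglia (100 or more UMIs). Further list genes were named for their known roles after their values were seen. The cells and lists were chosen with earlier results of these data known. Scripts, checked on simulated data, used Python 3.11.15, NumPy 2.4.6, SciPy 1.17.1, scikit-learn 1.9.0 and Matplotlib 3.10.9.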

Additional observations from a re-analysis of the deposited data

Results flagged for a closer look

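The antibody ratio of 1 list and 2 list genes had opposite signs in damage-associated and 0-UMI microglia, with both list medians at least 0.2 from 0 and both ratios of a gene past 1.5-fold with intervals off 0. Smaller opposite ratios, as for *Csf1* (−0.16 and 0.33) and *Clec7a* (−0.13 and 0.44), and genes on no list are not counted. The difference was not tested, since each group is 1 library. The damage-associated list had a median log2 ratio of −0.22 in the damage-associated cells and 0.41 in 0-UMI microglia. *Ccl3*, a chemokine, was at −0.73 (496 and 300 CPM) and 1.21 (130 and 301 CPM). *Cox6a2*, a subunit of cytochrome c oxidase, was at −0.59 (96.5 and 64.2 CPM) and 1.34 (33.3 and 84.2 CPM).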

How the results depend on the processing

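The cause of each shift below was not tested. No paired analysis was possible because each antibody has 1 library. The difference in the share of damage-associated cells was negative under all 11 settings, and was −20.47 percentage points with 5 or more rule UMIs, −20.13 and −47.82 with thinning to 1000 and 3000 UMIs and −31.91 with all kept cells thinned before gating. With control Ab the share was 31.73% with a limit of 2% mitochondrial UMIs, 22.06% with 5 or more rule UMIs, 40.76% without cells carrying markers of other lineages, 43.56% unthinned, 23.59% and 65.7% at 1000 and 3000 UMIs, 32.79% with 5 or more microglia UMIs and 39.87% with all kept cells thinned. With anti-CD9 Ab it was 4.842%, 1.59%, 15.22%, 15.12%, 3.454% and 17.88% for the first 6 of these. Without cells carrying markers of other lineages, and with gating after thinning, the antibody median was −0.42 and −0.37 for the damage-associated list and 0.48 and 0.50 for antigen presentation. The setting without other lineages left 111 and 19 damage-associated cells, and there the antibody ratio was 4.54 for *Saa3*, 2.48 for *Ccl5* and −3.33 for *Ctnna3* (−4.17 with gating after thinning). *Spp1* reversed to 0.036 with 5 or more rule UMIs. Over 0-UMI microglia with control Ab, the damage-associated list was at 2.25 without other lineages, and the homeostatic list at −0.81 there, −0.77 with thinning, −0.64 as a mean over cells, −0.61 without *Siglech* in the gate and −0.67 with 5 or more microglia UMIs. With anti-CD9 Ab the homeostatic list was at −0.76 without other lineages and −0.53 with 5 or more microglia UMIs. The settings on *Siglech*, low T cell background, thinning of all kept cells and, except for the shares, microglia UMIs were added after seeing the data, and low T cell background gave no value for antigen presentation or interferon response, with under 3 genes. Depth limits genes with few UMIs in the 160 anti-CD9 Ab cells.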

Other observations

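Metabolic and ribosomal genes were also measured. Of 15 glycolysis genes, 11 were past the fold above 0-UMI microglia in the damage-associated cells with control Ab (median log2 ratio 0.99) and 9 of 14 with anti-CD9 Ab (0.79). Over all genes these shares were 8.51% and 5.46%. The glycolysis genes had a median antibody ratio of 0.30 in the damage-associated cells, 0.57 in 0-UMI microglia and 0.55 in T cells. For 85 genes of oxidative phosphorylation the antibody medians were 0.34, 0.61 and 0.16, and for 77 ribosomal protein genes 0.53, 0.93 and 0.13. Immediate-early and heat shock genes had a median of −0.56 in the damage-associated cells, with 9 of 18 past the fold downwards, against 17.1% of all genes. Their median was −0.39 in 0-UMI microglia and 0.26 in T cells. *Jun*, a subunit of AP-1, was at 345 and 94.95 CPM, and *Egr1*, an immediate-early transcription factor, had a log2 ratio of −1.21.

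Complement genes differed among themselves. The C1q genes had antibody ratios of 0.07 (*C1qa*), 0.03 (*C1qb*) and −0.01 (*C1qc*), while *C3*, the central complement component, was at 39.4 and 111 CPM (1.49), and *C4b* had a ratio of 1.34. Among transcription factors *Cebpb* was at 137 and 342 CPM (1.32), and *Prdm1* (−1.09) and *Mef2c* (−0.82) were lower. Among lipid genes *Scd2*, a fatty acid desaturase, had a ratio of −1.55, and the apolipoproteins *Apoc1* and *Apoc2* ratios of 1.19 and 1.02.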
